A study of Mus musculus with 12 samples.

Results

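The genes described here are 10 mouse genes for the entry of long-chain fatty acids into cells and their activation to acyl-CoA. They were taken by gene name from the 54532 genes listed for each library, and all 10 were found. Cd36, Slc27a1 and Slc27a4 act in transport at membranes, Fabp5 and Dbi bind fatty acids and acyl-CoA, Acsl1, Acsl3, Acsl4 and Acsl5 are acyl-CoA synthetases, and Acot7 is an acyl-CoA thioesterase. Expression was measured as FPKM, a read count scaled by gene length and library size. A mean of at least 1 FPKM over the 12 libraries was required for testing, which 7 of the 10 genes and 11550 genes in all passed.

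The study asked whether the response of CD8+ T cells to trans-vaccenic acid (TVA), a long-chain fatty acid with a trans double bond, needs the transcription factor CREB. Primary mouse CD8+ T cells labelled WT received a non-targeting siRNA (siNTC), and those labelled Creb1 KD received an siRNA against Creb1 (siCreb1). Each kind of cell was cultured for 24 h with TVA or with DMSO, the solvent, which gave 4 groups named siNTC, siNTC plus TVA, siCreb1 and siCreb1 plus TVA, with 3 libraries each. The siRNA was of a kind that enters cells without a transfection reagent, and all groups had been stimulated in culture before. The labels give no strain or age for these cells and do not say whether the libraries of a group came from separate mice or cultures. P-values therefore measure the spread between these libraries only, which may be technical.

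The libraries held between 16660234 and 24602484 reads, recovered from the steps of the deposited values. The 6 siNTC libraries held 16660234 to 20758033 reads and the 6 siCreb1 libraries 20760297 to 24602484, without overlap. Genes above 0 numbered 19456 to 20008 and 20173 to 20993 in these libraries. Read number and siRNA thus cannot be told apart in the knockdown comparisons, and its part was not tested. Creb1, the target of the knockdown, lay between 10.3 and 12.4 FPKM in the 6 siNTC libraries and between 1.17 and 1.81 FPKM in the 6 siCreb1 libraries, so the transient knockdown left 13.4% of its mean without TVA and 13.1% with TVA. The summed FPKM of 8 markers of CD8 T cells, among them Cd3e, Cd8a and Cd8b1, was between 2736 and 2780 in the 6 siNTC libraries and between 2623 and 2649 in the 6 siCreb1 libraries, which did not overlap. Knockdown without TVA lowered 5 of the 8, among them Cd8b1 (−0.16 on the log2 scale of the tests below, adjusted p = 0.000665 from limma) and Cd3d (−0.15, adjusted p = 0.00615 from limma), and raised Cd8a (0.09, adjusted p = 0.00397 from limma) and Gzmb, an effector protease (0.43, adjusted p = 5.14e-05 from limma). With TVA it lowered Cd3d, Cd8b1 and Trac and raised Cd8a. TVA raised Gzmb in siNTC cells (0.31, adjusted p = 0.000247 from limma), and its TVA effect differed by −0.38 between siCreb1 and siNTC cells (adjusted p = 0.00254 from limma). The part of these shifts in the differences of the members was not tested. Markers of B cells summed to at most 2.74 FPKM, those of dendritic cells to at most 0.422 FPKM and those of the erythroid lineage to at most 0.520 FPKM. Those of CD4 T cells summed to 3.98 to 5.82 FPKM, of NK cells to 3.83 to 5.24 FPKM and of endothelial cells or adipocytes to 18.4 to 20.1 FPKM, whereas 4 platelet markers summed to between 104 and 178 FPKM. Nearly all of the endothelial cell or adipocyte sum was Pecam1 (mean 18.8 FPKM), while Cdh5, Adipoq and Plin1 had means of at most 0.101 FPKM. In bulk libraries, fewer cells of a type and less RNA per cell cannot be told apart.

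Long-chain fatty acids cross the plasma membrane with the help of proteins such as CD36 and the SLC27 family, and are carried in the cytosol by fatty acid binding proteins. Acyl-CoA synthetases of the ACSL family join them to coenzyme A, which traps them in the cell and opens the way to oxidation, membrane lipids or storage. Acyl-CoA binding protein, the product of Dbi, holds the activated form, and thioesterases such as ACOT7 cleave it back to the free acid. Activated CD8+ T cells use fatty acids for new membranes, and memory cells can oxidize them in mitochondria.

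The 10 genes spanned a wide range of levels, as the plot of FPKM by library shows. Dbi was the most highly expressed, with 42.1 to 49.1 FPKM over the 12 libraries, followed by Acsl5 (32.8 to 38.6 FPKM), Acsl4 (17.7 to 21.0 FPKM) and Acot7 (8.69 to 14.9 FPKM). The ranges of these 4 genes did not overlap with each other or with those of the other members. Over all 12 libraries Acsl3 (5.04 to 8.19 FPKM) overlapped with Slc27a4 (4.30 to 6.10 FPKM), and Slc27a4 with Fabp5 (3.31 to 4.73 FPKM). Within the siNTC libraries these genes did not overlap, with Acsl3 at 6.86 to 7.81, Slc27a4 at 5.51 to 6.10 and Fabp5 at 3.31 to 4.08 FPKM. Within the siCreb1 plus TVA libraries both pairs overlapped. Slc27a1 (0.700 to 1.16 FPKM) and Acsl1 (0.760 to 1.11 FPKM) overlapped in every group, and Cd36 was nearly absent, with 0 to 0.113 FPKM. These 3 were the members under the filter. Dbi stood above 90.5% of the tested genes and Fabp5 above 30.0%.

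**Figure D1:**
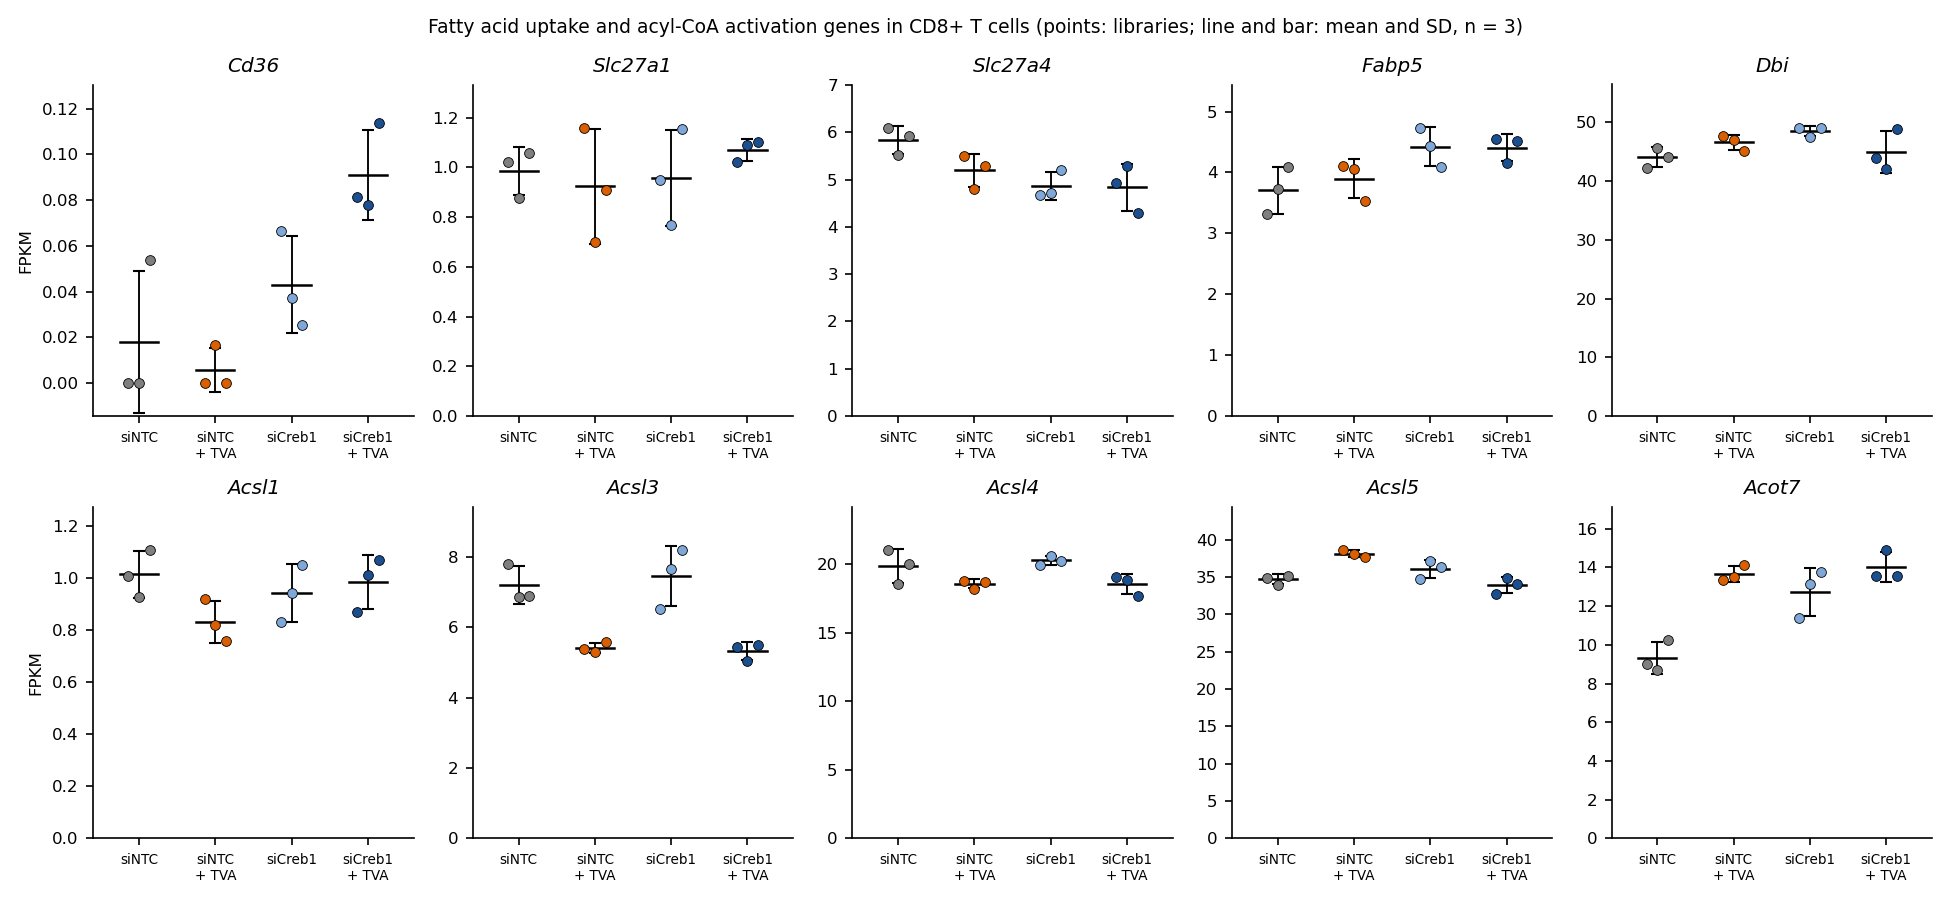
Expression of the 10 genes in FPKM (vertical axis, linear and different for each gene) in the 4 groups; points are libraries, the line is the mean and the bar is the SD (n = 3). Acsl3 is lower with TVA in siNTC and in siCreb1 cells, Acsl5 is highest in the siNTC plus TVA libraries, and Acot7 is lowest in the siNTC libraries.

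Acsl3 lies on chromosome 1 of GRCm38 from 78657825 to 78707743, Acsl5 on chromosome 19 from 55251938 to 55297720 and Acot7 on chromosome 4 from 152178134 to 152271855. The promoters of these 3 genes, the members whose expression changed in a test, are shown next, together with that of Acsl4, the only synthetase promoter with a core match of the site that CREB binds. Each covers 250 bases before and 50 bases after a start site of RefSeq (GRCm38.p6), printed 5′ to 3′ on the strand of the gene, with motif matches in capitals and all other bases in lower case. For Acsl5 and Acot7 this start site lies inside the gene positions given above.
Acsl3, chr1:78657575-78657874, plus strand: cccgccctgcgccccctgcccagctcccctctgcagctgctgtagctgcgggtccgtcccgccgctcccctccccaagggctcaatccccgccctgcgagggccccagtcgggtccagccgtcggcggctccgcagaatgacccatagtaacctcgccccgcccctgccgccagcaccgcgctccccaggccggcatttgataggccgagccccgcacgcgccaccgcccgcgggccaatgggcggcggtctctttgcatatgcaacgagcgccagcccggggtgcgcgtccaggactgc
Acsl5, chr19:55253119-55253418, plus strand: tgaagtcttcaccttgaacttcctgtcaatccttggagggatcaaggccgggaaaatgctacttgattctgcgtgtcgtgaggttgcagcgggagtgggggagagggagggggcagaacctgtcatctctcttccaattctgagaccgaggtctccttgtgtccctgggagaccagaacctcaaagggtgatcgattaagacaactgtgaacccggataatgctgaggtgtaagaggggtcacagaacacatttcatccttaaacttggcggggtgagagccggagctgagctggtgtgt
Acot7, chr4:152185358-152185657, plus strand: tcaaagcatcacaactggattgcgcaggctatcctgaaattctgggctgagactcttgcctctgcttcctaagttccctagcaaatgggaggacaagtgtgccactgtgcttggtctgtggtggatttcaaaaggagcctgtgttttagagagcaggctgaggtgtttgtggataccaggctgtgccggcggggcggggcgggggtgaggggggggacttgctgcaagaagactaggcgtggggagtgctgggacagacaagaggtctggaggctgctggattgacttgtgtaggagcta
Acsl4, chrX:142390486-142390785, minus strand: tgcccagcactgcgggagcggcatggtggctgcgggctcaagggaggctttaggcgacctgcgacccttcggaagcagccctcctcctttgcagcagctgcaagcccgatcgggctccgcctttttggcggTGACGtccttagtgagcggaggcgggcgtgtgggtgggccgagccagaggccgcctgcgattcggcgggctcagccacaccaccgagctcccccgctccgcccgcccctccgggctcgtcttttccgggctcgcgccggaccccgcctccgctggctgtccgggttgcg

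RefSeq gave 13 promoters for 9 of the 10 genes, and none for Fabp5. For Acsl5, Acot7 and Cd36 the only start site given lay inside the gene, so the outer 5′ end of these genes was not searched. The palindromic cAMP response element TGACGTCA was in none of the 13 on either strand, and in 1.79% of 32851 mouse promoters of this length. Its core TGACG, which the full site contains, was in 2 of the 13, that of Acsl4 at position −119 from the start site and one of the Dbi promoters at −187, against 20.8% of all promoters. The sterol regulatory element TCACCCCAC was in 1 of the 13, an Acsl1 promoter (position −76, on the opposite strand), against 0.551% of all. Pairs of AGGTCA with 1 or 4 bases between them, the repeats that PPAR and LXR dimers bind, were in none of the 13, and in 0.0396% and 0.0152% of all promoters. At shares this low, also for TGACGTCA, most sets of 13 promoters would hold none, so these absences say little. The Acsl3 promoter held 74.0% G and C, against a median of 52.7% over all promoters. These are matches of letters in 300 bases and say nothing of binding.

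Of the 7 tested genes, TVA raised Acot7 and Acsl5 and lowered Acsl3 in siNTC cells. In siCreb1 cells TVA lowered Acsl3 and no other member passed the test. Knockdown of Creb1 raised Acot7 in cells without TVA and lowered Acsl5 in cells with TVA. The changes were small, at most 1.47 times in the ratio of mean FPKM. Tests were made on log2(FPKM + 1) with limma in 1 fit of all 12 libraries, with Benjamini-Hochberg adjustment over the 11550 genes and a threshold of 0.05. A difference on this scale understates the fold change of genes of low FPKM.

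The 3 of 7 members called for TVA in siNTC cells compare with 7.38% of all tested genes. The other comparisons called 1 member each, against 0.537% of the tested genes for TVA in siCreb1 cells, 13.7% for knockdown without TVA, 10.1% for knockdown with TVA and 2.24% for the difference between the TVA effects. The median difference of the 7 members was 0.06 for TVA in siNTC cells, −0.09 for TVA in siCreb1 cells, 0.05 for knockdown without TVA and −0.02 for knockdown with TVA. Over all tested genes these medians were −0.01, 0.00, 0.00 and −0.01.

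**Figure D2:**
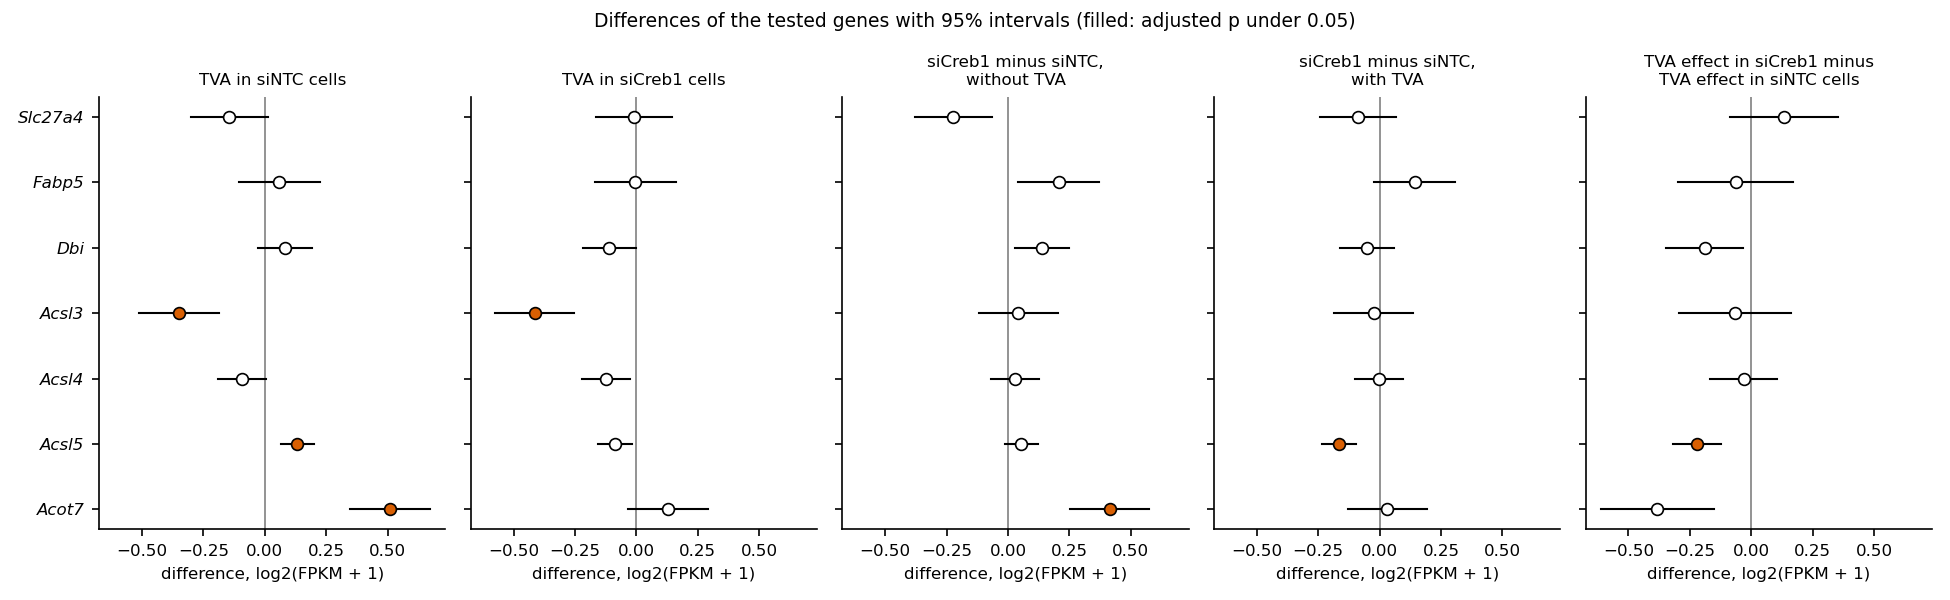
Differences of the 7 tested genes on the log2(FPKM + 1) scale (horizontal axis) with their 95% intervals (lines) in the 5 comparisons; filled points have an adjusted p under 0.05. Acsl3 lies at −0.35 and −0.41 for TVA in both kinds of cell, and Acot7 at 0.51 for TVA in siNTC cells and 0.41 for knockdown without TVA.

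Among the transport proteins, Slc27a4, a fatty acid transport protein with acyl-CoA synthetase activity, was the only tested member. Its FPKM was 6.10, 5.51 and 5.91 in the siNTC libraries and 5.49, 4.81 and 5.28 with TVA. It was 4.67, 4.73 and 5.20 in the siCreb1 libraries and 4.92, 5.28 and 4.30 in those with siCreb1 plus TVA. The siNTC libraries lay above those of the other 3 groups, which overlapped with each other. The difference was −0.22 (SE 0.07, adjusted p = 0.0627 from limma) for knockdown without TVA and −0.14 (adjusted p = 0.28 from limma) for TVA in siNTC cells, neither past the threshold. Without replicate 3 of siCreb1 plus TVA, a library outside the comparison that shares the spread estimate, the adjusted p for knockdown without TVA was 0.0398 from limma, and with limma-voom on reads the difference was −0.25 (adjusted p = 0.0487). These were 2 of 22 alternatives, and in the others the adjusted p reached 0.183 (limma).

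Slc27a1, a fatty acid transport protein of muscle and fat, stayed near 1 FPKM in every group. Its means were 0.985 ± 0.0958 FPKM in siNTC, 0.923 ± 0.230 FPKM in siNTC plus TVA, 0.958 ± 0.194 FPKM in siCreb1 and 1.07 ± 0.0432 FPKM in siCreb1 plus TVA cells (SD, n = 3). The groups overlapped in all pairs. With all 29700 genes above 0 in at least 1 library tested, its adjusted p was at least 0.711 in the 5 comparisons (limma), and the 95% interval of the TVA difference in siNTC cells was −0.30 to 0.20. On the log2 read scale of limma-voom, without the filter, that interval was −0.52 to 0.32.

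Neither binding protein passed the test in any of the 5 comparisons. Fabp5, which carries fatty acids in the cytosol of epidermal and activated immune cells, was at 3.31, 3.72 and 4.08 FPKM in siNTC and 4.11, 4.06 and 3.53 FPKM in siNTC plus TVA libraries. It was at 4.73, 4.44 and 4.10 FPKM in siCreb1 and 4.55, 4.16 and 4.52 FPKM in siCreb1 plus TVA libraries. The 6 siCreb1 libraries lay between 4.10 and 4.73 FPKM and the 6 siNTC libraries between 3.31 and 4.11 FPKM, which meet only at the lowest and highest library. The knockdown difference was 0.21 (SE 0.07, adjusted p = 0.0962 from limma) without TVA and 0.14 (adjusted p = 0.257 from limma) with TVA. TVA itself moved Fabp5 by 0.06 (95% interval −0.11 to 0.22) in siNTC cells and by 0.00 (95% interval −0.17 to 0.16) in siCreb1 cells, neither past the threshold. Processed pseudogenes near-identical to Fabp5 held 42 reads in the 12 libraries, 1.14% of the 3683 reads of Fabp5, and reads of Fabp5 could be split with these copies.

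Dbi was at 42.3, 45.7 and 44.1 FPKM in siNTC and 47.7, 47.0 and 45.2 FPKM in siNTC plus TVA libraries. In siCreb1 libraries it was at 49.0, 47.5 and 49.1 FPKM, and in siCreb1 plus TVA libraries at 43.9, 42.1 and 48.9 FPKM. The siCreb1 libraries lay above the siNTC libraries without overlap, and the siCreb1 plus TVA libraries overlapped with every group. The knockdown difference without TVA was 0.14 (SE 0.05, adjusted p = 0.0945 from limma). It passed the threshold in 4 of 22 alternatives, and in the others the adjusted p reached 0.245 (limma). The 4 were quantile normalization (adjusted p = 0.0422), TPM (0.0392), limma-voom on reads (0.0388) and leaving out replicate 3 of siCreb1 plus TVA (0.0308). The TVA effect of Dbi differed by −0.19 between siCreb1 and siNTC cells (95% interval −0.35 to −0.04, adjusted p = 0.228 from limma), and by −0.25 without that same library (adjusted p = 0.0499). That was the only 1 of 21 alternatives past the threshold, and in the others the adjusted p reached 0.483 (limma).

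Acsl3, the synthetase of the endoplasmic reticulum and lipid droplets, fell with TVA in both kinds of cell. It was at 7.81, 6.86 and 6.90 FPKM in siNTC and 5.39, 5.30 and 5.57 FPKM in siNTC plus TVA libraries. In siCreb1 libraries it was at 6.51, 7.64 and 8.19 FPKM, and in siCreb1 plus TVA libraries at 5.42, 5.04 and 5.50 FPKM. The 6 libraries with TVA lay between 5.04 and 5.57 FPKM and the 6 without between 6.51 and 8.19 FPKM, with no overlap. TVA left 75.4% of the mean FPKM in siNTC cells (difference −0.35, SE 0.07, adjusted p = 0.0154 from limma) and 71.4% in siCreb1 cells (difference −0.41, SE 0.07, adjusted p = 0.0353 from limma). The 2 effects differed by −0.07, with a 95% interval of −0.29 to 0.16 (adjusted p = 0.838 from limma). Knockdown alone moved Acsl3 by 0.04 (95% interval −0.12 to 0.20) without TVA and by −0.02 (95% interval −0.18 to 0.14) with TVA.

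The Acsl3 call in siNTC cells was lost without siNTC replicate 1 (adjusted p = 0.0541 from limma) and without siNTC plus TVA replicate 2 (0.0576), and kept in the other 20 of 22 alternatives. In siCreb1 cells the call held in 8 of 22 alternatives, with adjusted p from 0.00108 to 0.173 (limma). Among single libraries it held only without siNTC replicate 1, siNTC replicate 2 or siCreb1 replicate 1, and leaving out any other gave an adjusted p between 0.0536 and 0.173. Utp14b, a gene on the same strand inside the Acsl3 locus, aligns with Acsl3 transcripts over 221 bases at 98.2% identity, so reads there could be counted for either. Over its whole length Utp14b held 3920 reads in the 12 libraries, 56.8% of the 6905 reads of Acsl3. Utp14b was at 2.04 FPKM and differed by −0.18 (adjusted p = 0.314 from limma) and −0.27 (adjusted p = 0.357 from limma) with TVA in siNTC and siCreb1 cells. Its part in the Acsl3 difference was not tested.

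Acsl5, a synthetase of mitochondria and endoplasmic reticulum and the most highly expressed of the 4 in these cells, rose slightly with TVA in siNTC cells. It was at 34.9, 34.0 and 35.2 FPKM in siNTC and 38.6, 38.1 and 37.7 FPKM in siNTC plus TVA libraries. In siCreb1 libraries it was at 34.8, 37.1 and 36.4 FPKM, and in siCreb1 plus TVA libraries at 32.8, 34.9 and 34.1 FPKM. The siNTC plus TVA libraries lay above all 9 others. TVA raised Acsl5 by 0.13 in siNTC cells (SE 0.03, adjusted p = 0.0278 from limma), and the TVA difference in siCreb1 cells was −0.09 (SE 0.03, adjusted p = 0.392 from limma). The difference between these effects was itself past the threshold, at −0.22 (95% interval −0.32 to −0.12, adjusted p = 0.0301 from limma). With TVA, knockdown lowered Acsl5 by 0.16 (95% interval −0.23 to −0.10, adjusted p = 0.00996 from limma), to 89.0% of the mean FPKM of siNTC plus TVA cells. Without TVA the knockdown difference was 0.05 (adjusted p = 0.286 from limma).

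These calls of Acsl5 were close to the threshold. The rise with TVA in siNTC cells held in 13 of 22 alternatives, and was lost without siNTC replicate 1 or 2 (adjusted p = 0.0562 and 0.0912 from limma) and without siNTC plus TVA replicate 1, 2 or 3 (0.0837, 0.0759 and 0.0582). The difference between the TVA effects held in 8 of 21 alternatives, with adjusted p from 0.00587 to 0.0998 (limma). Among single libraries it held only without siNTC replicate 3, siCreb1 replicate 1 or siCreb1 plus TVA replicate 2, and leaving out any other gave an adjusted p between 0.0507 and 0.0767. The fall with knockdown in TVA-treated cells held in 21 of 22, and with TPM it was −0.12 (adjusted p = 0.103 from limma). Zdhhc6, which overlaps Acsl5 on the opposite strand, was at 4.81 FPKM and differed by 0.06 with TVA in siNTC cells (adjusted p = 0.542 from limma). Whether the counting used strand is not given in the sources used here.

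Acsl4, which prefers arachidonic acid, differed less. It was at 21.0, 18.5 and 20.02 FPKM in siNTC, 18.8, 18.2 and 18.7 FPKM in siNTC plus TVA, 19.9, 20.6 and 20.2 FPKM in siCreb1, and 19.1, 18.8 and 17.7 FPKM in siCreb1 plus TVA libraries. The TVA difference was −0.09 in siNTC cells (95% interval −0.19 to 0.01, adjusted p = 0.264 from limma) and −0.12 in siCreb1 cells (95% interval −0.22 to −0.03, adjusted p = 0.386 from limma). Only in siCreb1 cells did the libraries with and without TVA not overlap. Knockdown moved Acsl4 by 0.03 and 0.00 without and with TVA, with 95% intervals of −0.07 to 0.13 and −0.10 to 0.10.

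Acsl1, the main synthetase of fat, liver and heart, was near 1 FPKM. Its means were 1.01 ± 0.0912 FPKM in siNTC, 0.833 ± 0.0803 FPKM in siNTC plus TVA, 0.942 ± 0.111 FPKM in siCreb1 and 0.985 ± 0.103 FPKM in siCreb1 plus TVA cells (SD, n = 3). The siNTC plus TVA libraries lay below the siNTC libraries. With all 29700 genes above 0 tested, the TVA difference in siNTC cells was −0.14 (95% interval −0.33 to 0.06, adjusted p = 0.673 from limma). On the log2 read scale of limma-voom, without the filter, it was −0.28 (95% interval −0.57 to 0.01, adjusted p = 0.494).

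The summed FPKM of the 4 synthetases was 62.8 ± 2.28 in siNTC, 63.0 ± 0.684 in siNTC plus TVA, 64.7 ± 2.35 in siCreb1 and 58.8 ± 0.892 in siCreb1 plus TVA cells (SD, n = 3). Acsl5 made up 55.3% ± 1.25 of this sum in siNTC and 60.6% ± 0.469 in siNTC plus TVA cells (SD, n = 3). The share of Acsl3 was 11.4% ± 0.578 and 8.61% ± 0.234 in the same groups (SD, n = 3). In siCreb1 cells the share of Acsl5 was 55.8% ± 0.430 without and 57.7% ± 1.18 with TVA, and that of Acsl3 11.5% ± 0.970 and 9.05% ± 0.551 (SD, n = 3). These shares restate the levels above as proportions and were not tested.

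**Figure D3:**
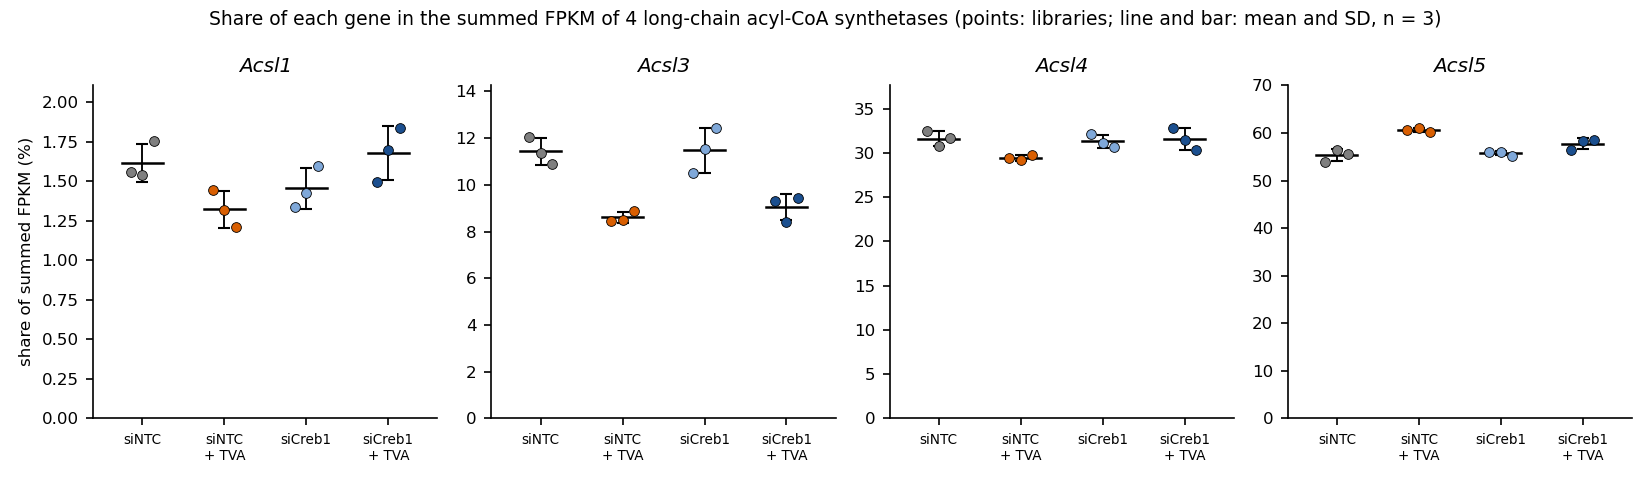
Share of each of 4 synthetase genes in their summed FPKM (vertical axis, percent, different scale for each gene) in the 4 groups; points are libraries, the line is the mean and the bar is the SD (n = 3). The share of Acsl3 is lower with TVA in both kinds of cell, at 8.61% and 9.05% against 11.4% and 11.5%.

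Acot7, a cytosolic thioesterase that cleaves long-chain acyl-CoA, had the largest change of the tested members. It was at 9.01, 8.69 and 10.3 FPKM in siNTC and 13.3, 13.5 and 14.1 FPKM in siNTC plus TVA libraries. In siCreb1 libraries it was at 11.4, 13.1 and 13.8 FPKM, and in siCreb1 plus TVA libraries at 13.6, 14.9 and 13.5 FPKM. The siNTC libraries lay below all 9 others, among which the siCreb1 and siCreb1 plus TVA libraries overlapped. TVA raised Acot7 to 1.47 times the siNTC mean (difference 0.51, SE 0.07, adjusted p = 0.00168 from limma), and knockdown raised it to 1.37 times that mean (difference 0.41, SE 0.07, adjusted p = 0.00485 from limma). Both comparisons use the same 3 siNTC libraries, so they are not independent.

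In siCreb1 cells the TVA difference of Acot7 was 0.13 (95% interval −0.03 to 0.29, adjusted p = 0.647 from limma), and with TVA the knockdown difference was 0.03 (95% interval −0.13 to 0.19, adjusted p = 0.825 from limma). The TVA effect in siCreb1 cells minus that in siNTC cells was −0.38 (SE 0.10, 95% interval −0.61 to −0.15, adjusted p = 0.0984 from limma), which missed the threshold. It passed with limma-voom on reads (adjusted p = 0.0493) and without siCreb1 replicate 1 (adjusted p = 0.0394). These were 2 of 21 alternatives, and in the others the adjusted p reached 0.243 (limma). The calls for TVA in siNTC cells and for knockdown without TVA held in all 22 alternatives, with adjusted p of at most 0.0102 and 0.04 (limma).

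Cd36, the scavenger receptor that takes up fatty acids in macrophages, platelets, endothelium and muscle, had 38 reads in the 12 libraries together. There were 0, 0 and 4 reads in the siNTC libraries, 0, 1 and 0 in siNTC plus TVA, 5, 3 and 2 in siCreb1, and 7, 7 and 9 in siCreb1 plus TVA libraries. The siCreb1 plus TVA libraries lay above all others. A library with 0 reads allows up to 3, which is 0.0412 to 0.0477 FPKM in these 4 libraries. Pooled over both TVA states there were 33 reads with siCreb1 and 5 with siNTC, a ratio of 5.57 per library read (95% exact counting interval 2.16 to 18.3). Without TVA it was 10 against 4 reads (ratio 2.25, interval 0.650 to 9.84) and with TVA 23 against 1 (ratio 18.2, interval 2.95 to 749). These intervals treat the pooled reads as independent counts and leave out the spread between libraries. In siNTC cells without TVA all 4 reads came from 1 library. Reads without molecular identifiers are also not independent molecules, so the intervals may be too narrow.

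Cd36 was under the filter and was tested only when all 29700 genes above 0 entered the fit. The knockdown difference with TVA was then 0.12 on the log2(FPKM + 1) scale (adjusted p = 0.0429 from limma), and 3.06 on the log2 read scale of limma-voom (adjusted p = 0.02), an alternative added after the data were seen. Without TVA the adjusted p was 0.585 and 0.386 in these fits. Markers of cells that carry Cd36 were read beside it, as the plot of Cd36 reads and marker sums shows. The 6 macrophage or monocyte markers summed to 6.18 to 7.19 FPKM in siNTC, 4.93 to 6.39 FPKM in siNTC plus TVA, 4.95 to 6.63 FPKM in siCreb1 and 7.73 to 8.89 FPKM in siCreb1 plus TVA libraries. Nearly all of this was Lyz2 (mean 6.19 FPKM), while Csf1r, Adgre1, Cd14, Itgam and Mertk had means of at most 0.149 FPKM. Lyz2 was higher in siCreb1 plus TVA than in siNTC plus TVA cells by 0.40 (adjusted p = 0.0478 from limma), and its part in the Cd36 reads was not tested.

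The summed platelet markers were lower with knockdown, where Cd36 had more reads. In siCreb1 cells their sum was higher with TVA, as were the Cd36 reads (23 against 10). The part of platelets in the Cd36 reads was not tested. Pf4, Ppbp, Itga2b and Gp9 summed to 168 to 178 FPKM in siNTC, 161 to 166 FPKM in siNTC plus TVA, 104 to 108 FPKM in siCreb1 and 125 to 132 FPKM in siCreb1 plus TVA libraries. Without TVA knockdown lowered all 4, by 0.59 to 0.79 on the log2 scale, the largest being Ppbp at −0.79 (adjusted p = 2.94e-05 from limma). With TVA it lowered Pf4, Ppbp and Itga2b, while Gp9 differed by −0.26 (adjusted p = 0.35 from limma). Ppbp was also higher with TVA in siCreb1 cells (0.36, adjusted p = 0.0195 from limma), where Acsl3 fell, and its TVA effect differed by 0.47 between siCreb1 and siNTC cells (adjusted p = 0.0116 from limma), the comparison in which Acsl5 was called. The other 3 platelet markers did not pass the test in these 2 comparisons. The part of the platelet markers in the knockdown differences of Fabp5, Slc27a4, Dbi, Acsl5 and Acot7, in the TVA difference of Acsl3 and in the difference between the TVA effects on Acsl5 was not tested.

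**Figure D4:**
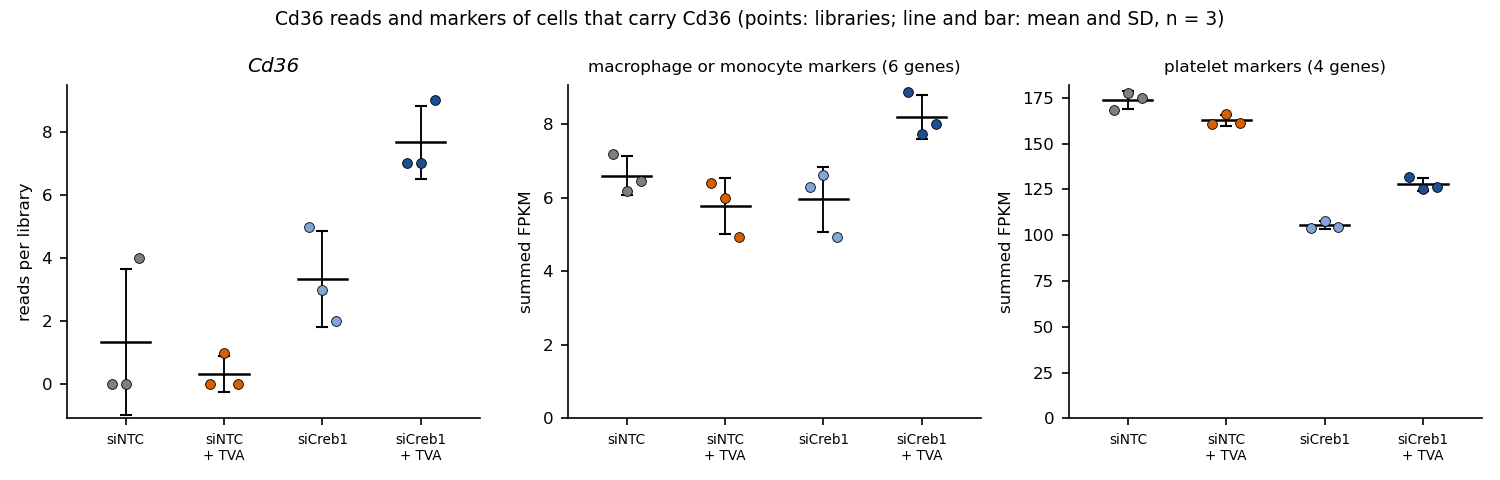
Reads of Cd36 per library (left), summed FPKM of 6 macrophage or monocyte markers (middle) and of 4 platelet markers (right) in the 4 groups; points are libraries, the line is the mean and the bar is the SD (n = 3). The siCreb1 plus TVA libraries have 7 to 9 Cd36 reads and the highest macrophage or monocyte sums. The platelet sums are lower in siCreb1 than in siNTC cells, and higher with TVA within siCreb1 cells.

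Knockdown was also compared over both TVA states for each of the 10 members, with an exact permutation test that exchanged siNTC and siCreb1 labels within each TVA state (400 divisions, two-sided, smallest p 0.005). Fabp5 was higher with siCreb1 by 0.17 (exact p = 0.005), Cd36 by 0.08 (exact p = 0.015) and Acot7 by 0.22 (exact p = 0.025), and Slc27a4 differed by −0.16 (exact p = 0.025). The other 6 members had exact p-values from 0.195 to 0.87. These p-values were not adjusted for the number of members. The exact test was made for the members only, so the share of all genes that would pass it is not known. In limma, knockdown called 13.7% of all tested genes without TVA and 10.1% with TVA. Whether the members differ from other genes in this test therefore cannot be said. Those of Slc27a4 and Acot7 each passed 0.05 no more when some single libraries were left out (siNTC replicate 1, siNTC plus TVA replicate 1 or siCreb1 plus TVA replicate 3 for Slc27a4, where the difference was −0.14, −0.14 and −0.12, and siNTC replicate 2 or siCreb1 plus TVA replicate 2 for Acot7, where it was 0.20 in both). With TPM the difference of Slc27a4 was −0.13 and also missed 0.05.

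Other genes of the pathway were taken from 6 lists with 75 genes, of which 31 were tested. For TVA in siNTC cells 3 of the 31 were higher and 2 lower, against calls for 7.38% of all tested genes. In siCreb1 cells 2 were higher and 1 lower, against calls for 0.537% of all tested genes. The higher genes belonged to the list of acyl-CoA use, which covers transfer to carnitine, oxidation and glycerolipid synthesis. Cpt1a, which joins long-chain acyl groups to carnitine at the mitochondrion, had a mean of 11.7 ± 0.333 FPKM in siNTC and 34.5 ± 0.901 FPKM in siNTC plus TVA cells (SD, n = 3), a difference of 1.48 (adjusted p = 3.34e-08 from limma). In siCreb1 cells it had a mean of 12.2 ± 0.753 FPKM without and 33.2 ± 0.844 FPKM with TVA (SD, n = 3), a difference of 1.38 (adjusted p = 6.85e-08 from limma). Acadvl, the very long-chain acyl-CoA dehydrogenase, rose by 0.32 (adjusted p = 0.00365 from limma) and 0.48 (adjusted p = 0.00148 from limma). Slc25a20, the carnitine-acylcarnitine carrier, rose by 0.52 in siNTC cells (adjusted p = 0.00114 from limma). Its difference in siCreb1 cells was 0.32 (adjusted p = 0.0937 from limma), and the test between these effects gave an adjusted p of 0.421 (limma).

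Aacs, a synthetase that activates acetoacetate rather than a long-chain acid, fell with TVA in both kinds of cell. Its mean was 15.2 ± 0.411 FPKM in siNTC and 12.3 ± 1.03 FPKM in siNTC plus TVA cells, and 16.4 ± 0.154 FPKM in siCreb1 and 12.04 ± 0.464 FPKM in siCreb1 plus TVA cells (SD, n = 3). The differences were −0.28 (adjusted p = 0.00767 from limma) and −0.42 (adjusted p = 0.00355 from limma). It was the only one of the 6 tested genes in the list of further synthetases to change with TVA. With TVA, knockdown lowered Acbd6, an acyl-CoA binding protein (−0.16, adjusted p = 0.0134 from limma), and raised Ppargc1b, a coactivator of oxidative genes (0.26, adjusted p = 0.0429 from limma). The 5 tested thioesterases in the lists, which exclude Acot7, had 0 calls in the 5 comparisons (limma), and 2 of them had an unadjusted p under 0.05 in at least 1. Calls over all tested genes ranged from 0.537% to 13.7% in these comparisons, so 0 calls among so few genes says little. The TVA effect differed between siCreb1 and siNTC cells past the threshold for 0 of the 31 genes (limma), and 3 had an unadjusted p under 0.05. Over all tested genes 2.24% had such a call, so 0 of 31 is not far from that share.

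**Figure D5:**
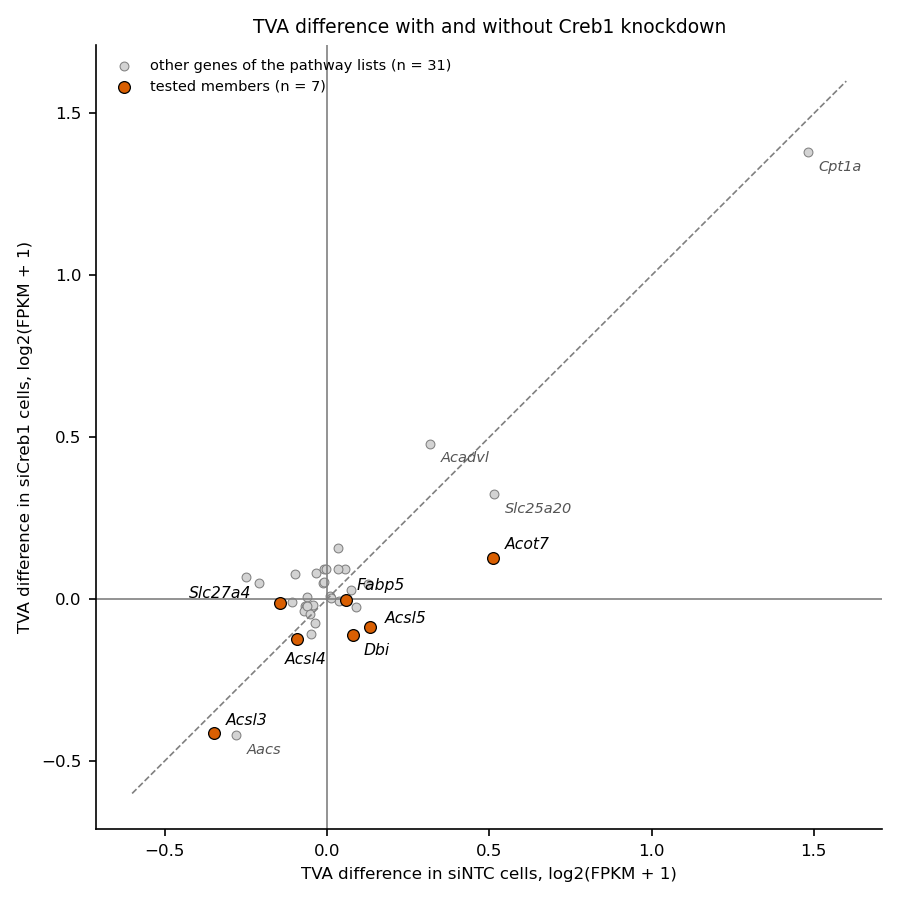
TVA difference in siNTC cells (horizontal axis) against that in siCreb1 cells (vertical axis), both on the log2(FPKM + 1) scale, for the 7 tested members (orange) and 31 other tested genes of the pathway lists (grey); the dashed line marks equal differences. Acsl3 and Aacs lie below 0 on both axes, Cpt1a and Acadvl above 0 on both, and Acot7 has a difference of 0.51 in siNTC and 0.13 in siCreb1 cells.

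For the 3 members with a call, the tested genes with the most similar pattern were found by Pearson correlation of log2(FPKM + 1) over the 12 libraries, which share the 4 groups and their depths. For Acsl3 they included Abcg1, a sterol exporter (r = 0.945), and Ssfa2 (r = 0.944). Abcg1 fell with TVA by 0.62 in both siNTC (adjusted p = 0.00022 from limma) and siCreb1 cells (adjusted p = 0.00135 from limma). For Acot7 they were Polq, a DNA polymerase of end joining (r = 0.988), Fignl1 (r = 0.957) and Zgrf1 (r = 0.947). For Acsl5 they were Cct8, a subunit of the TRiC chaperonin (r = 0.891), Actr6 (r = 0.885) and Ubr7 (r = 0.873). Within the 7 tested members the highest correlation was between Acsl3 and Acsl4 (r = 0.804) and the lowest between Fabp5 and Slc27a4 (r = −0.747).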

How the data were processed

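RNA-seq libraries of mouse CD8+ T cells were analysed, 3 in each of 4 groups taken from the sample labels. The authors deposited FPKM values for 54532 genes per library. The aligner, counting program, strand setting and annotation release are not given in the sources used here. The submitters' processing notes name GRCm38 and mm10, and all 10 genes have the same positions in GENCODE vM21. FPKM times gene length was a whole multiple of 1 step per library for at least 99.995% of genes above 0 (tolerance 0.02), and division by the step gave the reads (median 20759165 per library).

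Genes with a mean of at least 1 FPKM were compared with limma 3.58.1 (R 4.3.3; linear model with moderated variances and a trend on mean level) after adding a pseudocount of 1 and taking log2. All 12 libraries entered 1 fit with a coefficient per group. The study's methods name an unpaired test for its assays in general and refer to an earlier description for RNA-seq; limma was used here to share the estimate of the spread across genes and groups. P-values were Benjamini-Hochberg adjusted over all tested genes. The fit was tested on simulated data. Alternatives were another pseudocount (0.1), no filter beyond 1 library above 0, a filter of 5 FPKM, quantile normalization, TPM computed from FPKM, the replicate number as a block, no trend, only the libraries compared, limma-voom on reads, and each library left out. Limma-voom without the filter was chosen after seeing the data.

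The members, pathway lists and marker lists were chosen with earlier results of these data known. All members and Creb1 were named, with list genes called in a comparison and the 3 tested genes most correlated with each called member. Some genes that this rule would name are not reported here. Marker genes, and genes that overlap a member or align with it (BLAST 2.17.0, at least 90% identity over 200 bases), were named beside results they touch. Plots were made with matplotlib 3.10.9 (Python 3.11.15). The other experiments of the study were not analysed here.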

Additional observations from a re-analysis of the deposited data

Results flagged for a closer look

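The TVA effect on Acsl5 differed between siCreb1 and siNTC cells by −0.219 on the log2(FPKM + 1) scale, with a standard error of 0.0441 and an adjusted p of 0.0301 (limma, interaction term, 3 libraries per group). It was flagged because the test of the difference itself passed the threshold. The TVA difference of Acsl5 was 0.13 in siNTC cells, past the threshold, and −0.09 in siCreb1 cells, which did not pass it. Of the tested genes 2.24% had such a call. Ppbp, a platelet marker, had a difference of 0.47 in the same comparison (adjusted p = 0.0116 from limma), and its part was not tested.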

How the results depend on the processing

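In all, 1032 values were recomputed under alternatives. Of the differences of single members 821 kept direction and side of the threshold, 45 lost a call, 9 gained one and 33 changed sign, none of which had been called. The number of members called for TVA in siCreb1 cells was 0 with all genes above 0, TPM, the replicate block, no trend and only the libraries compared. For knockdown without TVA it was 2 with quantile normalization, 2 with TPM and 3 with limma-voom. For knockdown with TVA it was 2 with all genes above 0, 0 with TPM and 2 with limma-voom on all genes above 0. For the interaction it was 0 with all genes above 0, TPM, the replicate block and no trend, and 2 with limma-voom. Leaving out each library gave 1 to 3 for TVA in siNTC cells, 0 to 1 for TVA in siCreb1 cells, 1 to 3 for knockdown without TVA, 1 for knockdown with TVA, 0 to 2 for the interaction and 3 to 4 for knockdown over both TVA states. The cause was not tested. Knockdown over both TVA states was tested for the members only, so its count has no share of all genes beside it.

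Same-numbered libraries had correlations of −0.0593 to 0.0595 over 18 pairs after group means were removed, so no shared shift by number was seen. These values cannot tell whether same-numbered libraries came from the same mouse or culture. With the replicate block the adjusted p was 0.0934 for Acsl3 with TVA in siCreb1 cells and 0.0591 for the Acsl5 interaction (limma), and no other call changed.

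Signs turned as follows. Fabp5 with TVA in siCreb1 cells was 0.00217 with TPM and 0.00837 and 0.00838 with limma-voom, and Slc27a4 was 0.00491 and 0.00496 with limma-voom. For knockdown with TVA, Acsl3 was 0.0232 with TPM, and Acsl4 was 0.0254 with quantile normalization, 0.050 with TPM, and 0.0183 and 0.0188 with limma-voom. For knockdown over both TVA states with quantile normalization, Slc27a1 was −0.0189, Acsl1 −0.0294 and Acsl3 −0.00613. Leaving out libraries gave −0.00206 to 0.116 for Fabp5 with TVA in siNTC cells, −0.0477 to 0.0373 for Fabp5 and −0.0652 to 0.0573 for Slc27a4 with TVA in siCreb1 cells, −0.0214 to 0.124 for Acsl3 and −0.0173 to 0.0693 for Acsl4 with knockdown without TVA, −0.0440 to 0.00914 for Acsl3, −0.0222 to 0.0303 for Acsl4 and −0.0110 to 0.0544 for Acot7 with knockdown with TVA, −0.0710 to 0.0156 for the Acsl4 interaction, and −0.0225 to 0.0504 for Acsl3 and −0.00950 to 0.0338 for Acsl4 with knockdown over both TVA states. Depth limits Cd36, with at most 9 reads per library.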
